A study of Mus musculus with 6 samples.

Results

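The expression of 10 genes of epithelial cell-cell junctions and of the cortex beneath them was followed through 6 sorted stromal populations of the mouse omentum: the cadherins Cdh1, Cdh2, Cdh3 and Cdh11, the claudins Cldn1 and Cldn15, the tight junction genes Ocln and Tjp1, the epithelial adhesion gene Epcam and the membrane-cytoskeleton linker Ezr. They were picked by symbol from the 23352 genes of the deposited tables, not by level, and all 10 are listed there. Only 7 of the 10 reached 1 FPKM in any library. FPKM counts fragments per kilobase of transcript, scaled to the mapped reads of the library. This adjusts for transcript length and depth but not for differences in RNA make-up, so ratios between libraries depend on the scaling. Cdh1, Ocln and Epcam stayed below 1 FPKM in every library.

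The study asked which omental stromal cells make retinoic acid and how these cells differ from mesothelium and other stroma. Omenta of wild-type C57BL/6 mice were digested with Liberase TM and DNase I, and cells were sorted on CD45 (leukocytes), CD140a (PDGF receptor alpha), CD105 (endoglin) and aldehyde dehydrogenase (ALDH) activity. No other allele or agent is named for any group. P1, P2 and P3 were CD45- CD140a+ CD105+ cells with high, intermediate and low ALDH activity. P4 and P5 were CD45- CD140a+ CD105- cells with intermediate and low activity, and P6 was a CD45- CD140a low population with ALDH activity. Each population was 1 RNA-sequencing library with no replicate, and neither the age of the mice nor the number of mice behind a library is given in the sources used here. No test between populations was therefore possible. Ratios below carry 95% Clopper-Pearson intervals on estimated reads, which cover counting error only and say nothing about the spread between animals or sorts.

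The estimated depth ran from 36.8 M reads in P6 to 61.9 M in P5. The sorting genes matched the labels, with Eng (CD105) at 42.6 to 52.4 FPKM in P1 to P3 against 0.231 to 0.728 in P4 to P6, and Pdgfra at 5.36 FPKM in P6 against 117 to 154 in P1 to P5. The 13 mesothelial markers (keratins, Upk3b, Msln and others) summed to 137, 176 and 250 FPKM in P1, P2 and P3, to 1430 and 1188 in P4 and P5, and to 3839 in P6, and none of the 13 was listed at 0 in all libraries. A list of 18 pancreatic acinar enzymes also differed, at 19.0, 276, 38.3, 1420, 173 and 2077 summed FPKM from P1 to P6, while 4 acinar transcription factors stayed below 1 FPKM throughout. Whether the RNA of other cells contributed to the values below was not tested, and in bulk libraries fewer cells of a type cannot be told apart from less RNA per cell.

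Cadherins are calcium-dependent receptors that bind the same cadherin on the neighbouring cell and anchor to actin through catenins. Claudins form the strands of the tight junction, occludin joins those strands, and ZO-1, the product of Tjp1, ties them to actin. The peritoneal lining, the mesothelium, is an epithelium of mesodermal origin that has tight junctions, microvilli and keratins but shares genes with the fibroblasts beneath it, and E-cadherin repressors such as Snai1 and Zeb2 bind the E-box letters CAGGTG in epithelial promoters.

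Promoter letters were examined because 3 of the 10 genes, all classical epithelial genes, were near 0 in these libraries. RefSeq start sites (GRCm38.p6) were given for 6 of the 10, namely Cldn1, Cldn15, Ocln, Tjp1, Epcam and Ezr. Cdh1 and the other cadherins could therefore not be searched. Both strands of the 250 bases before each start were searched for CAGGTG and its reverse complement CACCTG. Epcam held the letters at -187 and -19 from its start, and the second start of Ocln held them at -213 and -68. The windows of Cldn1, Cldn15, Tjp1 and Ezr and that of the first Ocln start held none. The window of the second Ocln start overlaps exon sequence of Ocln, and those of Cldn1, Cldn15 and Ezr overlap exons of their own gene. Among 32851 mouse start-site windows of the same length, 17.2% held a match. The Epcam and Tjp1 windows are printed whole, as a window with matches and a window without, and the Ocln matches with 12 bases on either side. Capitals mark the matches, and all are written 5′ to 3′ on the strand of the gene.
Epcam, chr17:87635729-87635978, plus strand: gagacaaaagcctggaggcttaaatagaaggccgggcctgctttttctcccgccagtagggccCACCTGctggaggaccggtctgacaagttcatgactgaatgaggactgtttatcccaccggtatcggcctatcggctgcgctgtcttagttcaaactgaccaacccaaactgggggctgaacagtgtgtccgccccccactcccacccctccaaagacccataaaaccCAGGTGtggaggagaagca
Tjp1, chr7:65371245-65371494, minus strand: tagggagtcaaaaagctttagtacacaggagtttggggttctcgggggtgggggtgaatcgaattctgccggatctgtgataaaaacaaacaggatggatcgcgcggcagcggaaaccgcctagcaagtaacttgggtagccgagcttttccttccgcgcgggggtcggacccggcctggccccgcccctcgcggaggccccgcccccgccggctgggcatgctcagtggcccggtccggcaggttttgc
Ocln, -213 from the second start, chr13:100552694-100552723, minus strand: ccatcggagtttCAGGTGaatgggtcaccg
Ocln, -68 from the second start, chr13:100552549-100552578, minus strand: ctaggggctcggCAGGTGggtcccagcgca
A match describes the letters only, and binding was not measured in these samples. A relation between the letters and the levels was not tested.

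Cdh11 (OB-cadherin), the cadherin of fibroblasts and other mesenchymal cells, was by far the most abundant of the 4 cadherins. Its level was 24.8, 67.0 and 114 FPKM in the CD105+ libraries P1, P2 and P3, 201 and 279 FPKM in the CD105- libraries P4 and P5, and 221 FPKM in P6. P1 was the lowest library and P5 the highest, with an 11.3-fold ratio between them (95% interval 11 to 11.5), and for every pair of neighbours in the order of levels the interval of the ratio lay above 1. Within CD105+ cells the level was higher where ALDH activity was lower, and within CD105- cells the low-ALDH library was again the higher, by 1.39-fold (1.37 to 1.40). Of the summed FPKM of 23 cadherins in the files, Cdh11 held 84.6% in P1, 98.1% in P5 and 95.8% in P6.

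Cdh2 (N-cadherin), also typical of mesenchyme and of mesothelium, was present at a low level. It was listed at 0.311, 0.419 and 0.907 FPKM for P1, P2 and P3, at 0.997 and 2.30 for P4 and P5, and at 1.42 for P6. P5 exceeded P6 by 1.63-fold (1.40 to 1.89), whereas P4 and P3 could not be separated by counting error, at a ratio of 1.10 (0.922 to 1.31).

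Cdh3 (P-cadherin), a classical cadherin of epithelia, had a different order from Cdh11 and Cdh2. The CD105+ libraries had 0.0370 (P1), 0.0172 (P2) and 0.0924 FPKM (P3), P4 had 1.07 FPKM, P5 had 0.731 and P6 had 4.62. The 3 CD105+ libraries rested on 4 to 23 estimated reads each, so P1 and P2 could not be ordered. P6 was 4.31-fold above P4 (3.74 to 4.99), the next library, and 6.32-fold above P5 (5.38 to 7.47).

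Cdh1 (E-cadherin), the cadherin that defines most adherens junctions of epithelia, was close to absent. It was listed at 0 in P1 and P3, at 0.0192 FPKM in P2, at 0.0729 and 0.0154 FPKM in P4 and P5, and at 0.0257 FPKM in P6. These values correspond to about 5, 18, 4 and 4 reads in P2, P4, P5 and P6, and a count of 0 allows up to 0.0133 FPKM in P1 and 0.0117 FPKM in P3 (3 reads). P4 had the most reads, but its ratio to P6 of 2.84 had an interval that included 1 (0.933 to 11.5). The libraries with Cdh1 reads were also the 4 with the highest summed acinar enzymes, and the part of other cells' RNA in these reads was not tested. Cdh3 and Cdh1 are neighbours on the plus strand of chromosome 8 (GRCm38 coordinates chr8:106510891-106557297 and chr8:106603351-106670246), 46.1 kb apart with 1 protein-coding gene between them, yet in P6 the first was at 4.62 FPKM and the second at 0.0257. Cdh11 lies on the minus strand of the same chromosome at chr8:102632095-102785642.

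**Figure D1:**
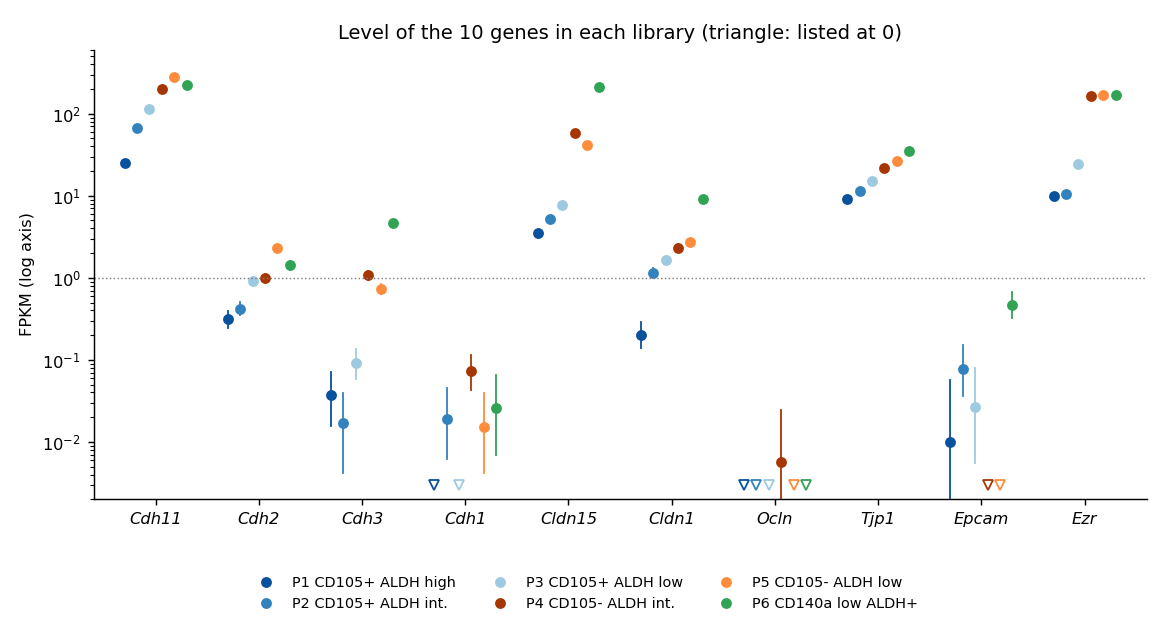
FPKM on a log axis of the 10 genes in the 6 libraries, 1 point per library, with 95% Poisson intervals of the estimated reads as vertical lines (lines that meet the axis go on below it) and open triangles for genes listed at 0. Cdh11, Tjp1, Ezr and Cldn15 lie above the dotted line at 1 FPKM in all 6 libraries, whereas Cdh1, Ocln and Epcam lie below it in all 6, and P6 has the highest point for Cdh3, Cldn15, Cldn1, Tjp1 and Epcam.

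Cldn15, a claudin that forms pores for cations in the gut and other epithelia, had the widest range of the 4 listed genes that reached 1 FPKM in every library. CD105+ cells had 3.47, 5.23 and 7.70 FPKM (P1, P2 and P3), CD105- cells 58.1 and 41.5 FPKM (P4 and P5), and P6 had 209 FPKM. The 3 CD105+ libraries were the lowest and P6 stood above the rest, 3.61-fold over P4 (3.50 to 3.72) and 60.4-fold over P1 (54.0 to 67.7). The gene lies at chr5:136966616-136975858 on the plus strand.

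Cldn1, a sealing claudin of many epithelia including epidermis, was lower than Cldn15 in every library. Levels were 0.203, 1.16 and 1.64 FPKM among CD105+ libraries (P1, P2 and P3), 2.34 and 2.75 FPKM for P4 and P5, and 9.24 FPKM for P6. P6 exceeded P5 by 3.36-fold (3.02 to 3.74), and P1, on 33 estimated reads, was 5.72-fold below P2 (3.94 to 8.49). Cldn1 occupies chr16:26356642-26371841 on the minus strand.

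The claudin that led the family differed between libraries. Among 25 claudins, Cldn25 had the largest share of the summed FPKM in P1 (49.4%), P2 (38.6%) and P3 (32.6%), Cldn10 in P4 (48.1%) and P5 (54.4%), and Cldn15 in P6 (56.4%). Cldn25 itself varied little, from 23.1 to 28.0 FPKM, so its smaller share in P4 to P6 accompanied higher Cldn10 and Cldn15. The symbol Cldn25 is not in GENCODE M21, so its locus could not be checked, and with Cldn25 left out Cldn10 had the largest share in P1 to P5. Cldn10, a paracellular channel, was at 8.87, 8.96 and 19.4 FPKM in P1, P2 and P3 and at 95, 106 and 106 FPKM in P4, P5 and P6, so that P4, P5 and P6 were at close levels, as for Ezr, whereas Cldn15 was higher in P6 than in P4 and P5.

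Ocln, the gene of occludin, was listed at 0 in 5 of the 6 libraries and at 0.00570 FPKM in P4, about 1 read. A count of 0 allows up to 0.0211 FPKM in P6, the shallowest library, and 0.0147 FPKM or less in the others listed at 0 (3 reads). Tjp1 (ZO-1), by contrast, was read in every library, at 9.16, 11.5 and 15.1 FPKM among CD105+ cells (P1, P2 and P3), 22.0 and 26.2 FPKM among CD105- cells (P4 and P5) and 35.6 FPKM in P6. Its range was 3.88-fold from P1 to P6 (3.73 to 4.04), with P6 1.36-fold over P5 (1.32 to 1.39). Tjp1 also serves adherens junctions of cells without tight junctions, including fibroblasts.

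Epcam, a surface adhesion protein of simple epithelia and carcinomas, was at 0.0101, 0.0783 and 0.0266 FPKM in P1, P2 and P3, was listed at 0 for P4 and P5, and was at 0.465 FPKM in P6. These were about 1, 9, 3, 0, 0 and 32 reads. P6 was 5.94-fold above P2 (2.77 to 14.2), the next library, but still below 1 FPKM, the level every mesothelial marker exceeded there. The gene spans chr17:87635979-87651129 on the plus strand.

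Ezr (ezrin), which couples membrane proteins of microvilli to actin, divided the libraries into groups of 3. It was at 10.1, 10.7 and 24.1 FPKM in P1, P2 and P3 and at 165, 169 and 168 FPKM in P4, P5 and P6. P6 and P5 could not be separated, at a ratio of 0.996 (0.978 to 1.01), and neither could P1 and P2, at 0.943 (0.882 to 1.01). Among ezrin, radixin and moesin, Ezr made up 6.79% of the summed FPKM in P1 and 53.1% and 57.5% in P4 and P6, while Msn led in P1 to P3. Ezr (chr17:6738041-6782784, minus strand) overlaps exons of Sytl3 on the opposite strand, and the library kit as described does not mark strand, but Sytl3 reached at most 0.165 FPKM.

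**Figure D2:**
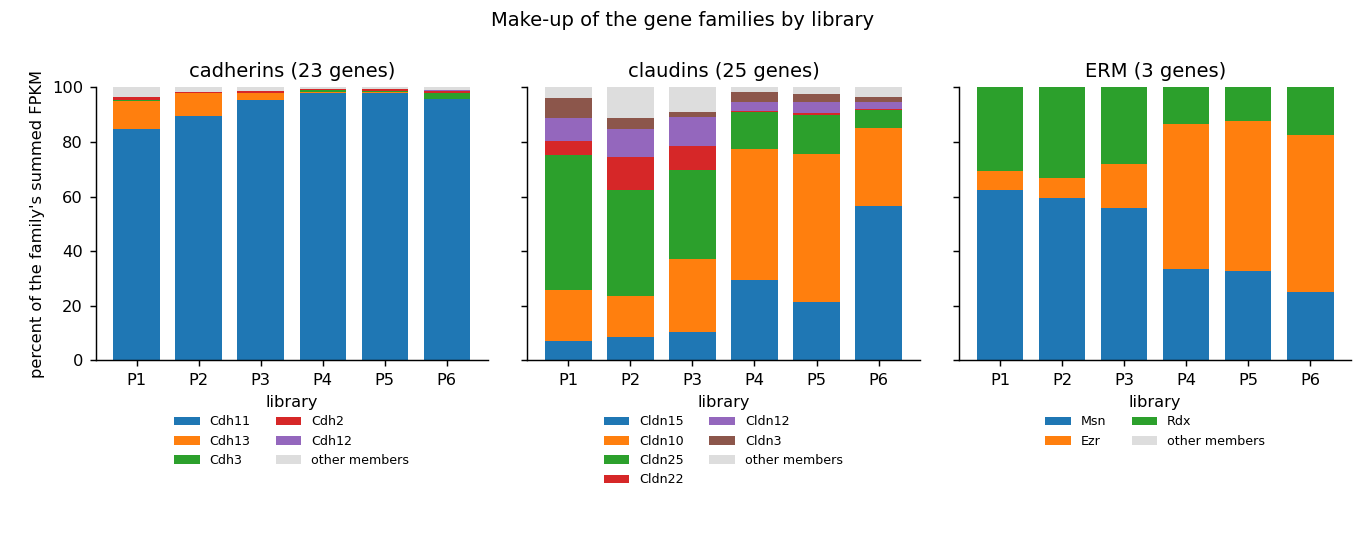
Share in percent of each family's summed FPKM (vertical axis) in the 6 libraries for cadherins, claudins and the ezrin-radixin-moesin (ERM) genes, with the leading genes in colour and the rest in grey. Cdh11 fills 84.6 to 98.1% of the cadherin bars, while the largest claudin block is Cldn25 (a symbol not in GENCODE M21) in P1, Cldn10 in P5 and Cldn15 in P6, and Ezr grows from 6.79% of the ERM bar in P1 to 57.5% in P6.

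P6, the CD140a low population, was compared with the other 5. A gene was called higher when P6 had at least 1 FPKM and at least 2-fold the level of each other library, and 6.45% of the 12904 genes at 1 FPKM or more in a library met this. Cdh3, Cldn1 and Cldn15 were called, 3 of the 10 and of the 7 that reached 1 FPKM in a library. Tjp1 was highest in P6 but within 2-fold of P5, Ezr was level with P4 and P5, and Cdh11 and Cdh2 were highest in P5. In the other direction, each of the 5 libraries at least 2-fold above P6, 3.43% of genes were called and none of the 10. The median log2 ratio of P6 over the mean of the others was 1.11 over the 10, 1.15 over the 7 tested and 0.08 over all genes tested.

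Among 106 other junction and regulator genes, of which 53 reached 1 FPKM in a library, 14 were called higher in P6 and 4 lower. The higher genes were mostly of the tight junction and its polarity complexes (7 of 20, 17 tested) and of the desmosome list (5 of 10, 7 tested). Cgn (cingulin), a tight junction plaque protein, was at 0.209 to 6.42 FPKM in P1 to P5 and 29.3 in P6. Pard6b, a polarity protein, was at 0.211 to 4.31 FPKM and 29.3 FPKM, and Perp, a desmosomal membrane protein, at 0 to 0.422 FPKM and 14.8 FPKM. Desmosomal genes were not uniformly higher, since Dsp (desmoplakin), which links desmosomes to keratin, was at 0.515 FPKM in P6 and at most 1.39 elsewhere. Of the same list, Dsc2 was at 0 FPKM in P6 and at most 1.01 elsewhere, and Dsg2 at 0.362 FPKM and at most 0.646. The genes called higher also included Cdh12, Mllt4 (afadin), Marveld3, Cgnl1, Inadl, Prkcz, Pkp2, Pkp4, Ppl and Evpl.

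The genes called lower in P6 were Jam2, Pvrl1 (nectin-1) and the transcription factors Snai1 and Zeb2, both repressors of Cdh1. Snai1 was at 19.5, 22.5, 21.4, 12.9 and 15.9 FPKM from P1 to P5 and 1.85 in P6, and Zeb2 was at 25.2 to 32.6 FPKM in P1 to P5 and 8.13 in P6. Zeb1, Twist1, Twist2 and Snai2, of the same regulator list, were not called lower. Each was lowest in P6, but Zeb1 and Snai2 only narrowly. Zeb1 was at 14.3 FPKM in P6 and at 14.6 to 29.7 FPKM in P1 to P5. Twist1, Twist2 and Snai2 were at 5.20, 3.53 and 1.90 FPKM in P6. Snai2 was at 1.98 FPKM in P4 and 2.11 FPKM in P5. Cdh1 was at 0.0257 FPKM in P6, and a relation between its level and these factors was not tested. Among epithelial regulators in P6, Grhl2, Ovol2, Elf3 and Ehf were listed at 0 and Esrp1 at 0.00738 FPKM. Grhl1 and Esrp2 were highest in P6, at 0.923 and 0.919 FPKM, 6.28-fold (4.13 to 9.90) and 2.96-fold (2.14 to 4.09) above P4, but under 1 FPKM. The catenins that join cadherins to actin were read in all libraries, Ctnnb1 (beta-catenin) at 107 to 131 FPKM and Ctnna1 (alpha-catenin) at 51.8 to 116 FPKM.

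Some markers of other cells were also higher in P6, and others were not. Of the 13 mesothelial markers 11 were called higher in P6, of 18 acinar enzymes none, and 4 of 5 adipocyte genes were called, summing to 151.6 FPKM in P6 against 0.699 to 4.93 elsewhere. Kdr and Esam, of 8 endothelial genes, were also called, and the other 6 stayed below 1 FPKM in every library. Of 5 mural genes, Cspg4, Acta2 and Mcam were called higher and Notch3 was called lower. The mural list summed to 38.4 FPKM in P6 against 3.41 to 11.9 elsewhere. Of the intestinal and duct lists, Cdx1, Cdx2 and Onecut1 were listed at 0 in all libraries, whereas Lgr5 (9.92 FPKM in P6) and Krt23 (14.3 FPKM) were called higher in P6, and Cftr was at 0.372 FPKM there and at most 0.0106 elsewhere. Sox9, of the duct list, was called lower in P6. The part of such cells in the P6 junction values was not tested.

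**Figure D3:**
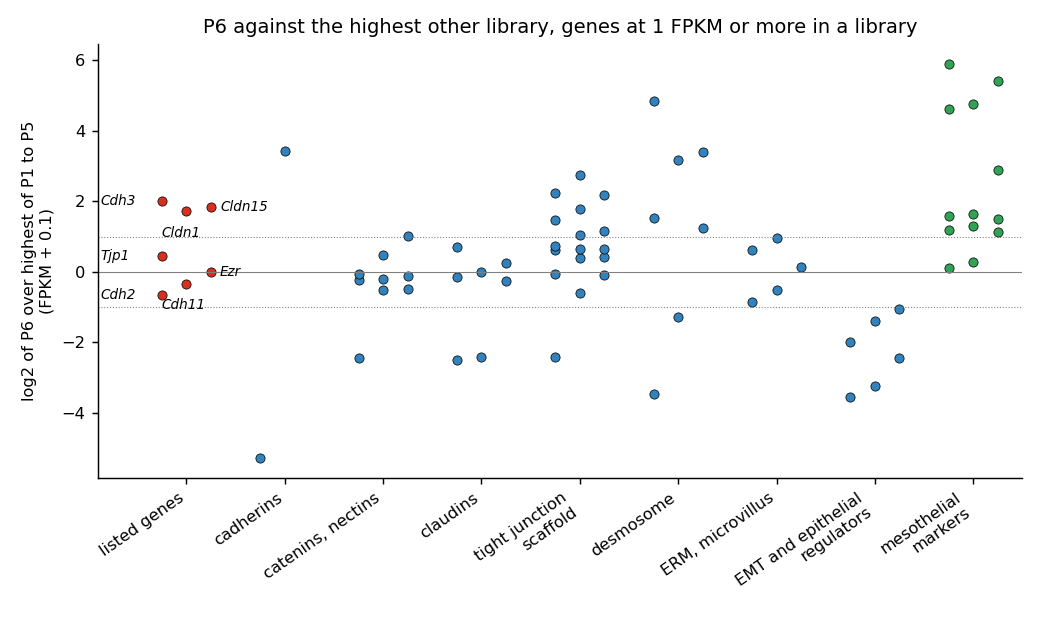
Log2 ratio of P6 to the highest of P1 to P5, on FPKM + 0.1, for genes at 1 FPKM or more in a library, 1 point per gene, grouped by list (the 10 genes in red, of which 7 are drawn, other junction lists in blue, mesothelial markers in green), with dotted lines at 2-fold. Cdh3, Cldn1 and Cldn15 lie above the upper line, Tjp1, Ezr, Cdh11 and Cdh2 lie between the lines, and the mesothelial markers run from the zero line to the top of the plot.

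CD105+ and CD105- cells were compared at matched ALDH activity, P4 with P2 (intermediate) and P5 with P3 (low). A gene was called when it had at least 1 FPKM in the higher libraries and at least a 2-fold ratio in both pairs. Of 12405 genes tested 5.43% were higher in CD105- cells, and Cdh11, Cldn15 and Ezr were among them, 3 of the 10 and of the 7 tested. Ezr had ratios of 15.5 (14.8 to 16.2) and 7.01 (6.79 to 7.24) in the intermediate and low pairs, Cldn15 of 11.1 (10.2 to 12.1) and 5.39 (5.0 to 5.83), and Cdh11 of 3.0 (2.95 to 3.04) and 2.45 (2.42 to 2.48). For Ezr, Cldn15 and Cdh11 the ratio was smaller at low ALDH activity, where the CD105+ level in P3 was above that of P2. For Cldn15 the CD105- level was also lower at low activity, at 41.5 FPKM in P5 and 58.1 FPKM in P4.

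Cdh3 and Cdh2 also had ratios above 2 in both pairs but missed the 1 FPKM minimum in 1 of the CD105- libraries, Cdh3 with ratios of 62.4 (26.6 to 255) and 7.92 (5.20 to 13.0) and Cdh2 with 2.38 (1.91 to 2.97) and 2.54 (2.19 to 2.94). Tjp1 was 1.92-fold (1.85 to 1.98) and 1.74-fold (1.68 to 1.79) higher in CD105- cells, and Cldn1 2.02-fold (1.70 to 2.38) and 1.68-fold (1.45 to 1.94). Of the rest, Cdh1 was 3.79-fold higher in P4 than in P2 (1.36 to 13.1) on 18 and 5 reads, Ocln had about 1 read in all, and Epcam was listed at 0 in both CD105- libraries. The median log2 ratio over the 10 was 1.02 for P4 over P2 and 1.02 for P5 over P3. Over the 7 at 1 FPKM or more in a library it was 1.58 and 1.29, against 0.08 and 0.09 over all genes at that level. None of the 10 was called higher in CD105+ cells, where 3.71% of genes were. When Gapdh (214 to 224 FPKM in CD105+ and 302 to 326 in P4 and P5) served as the scale, Cdh11 no longer passed and the ratios of Cldn1 went to 1.45 and 1.15, still above 1.

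**Figure D4:**
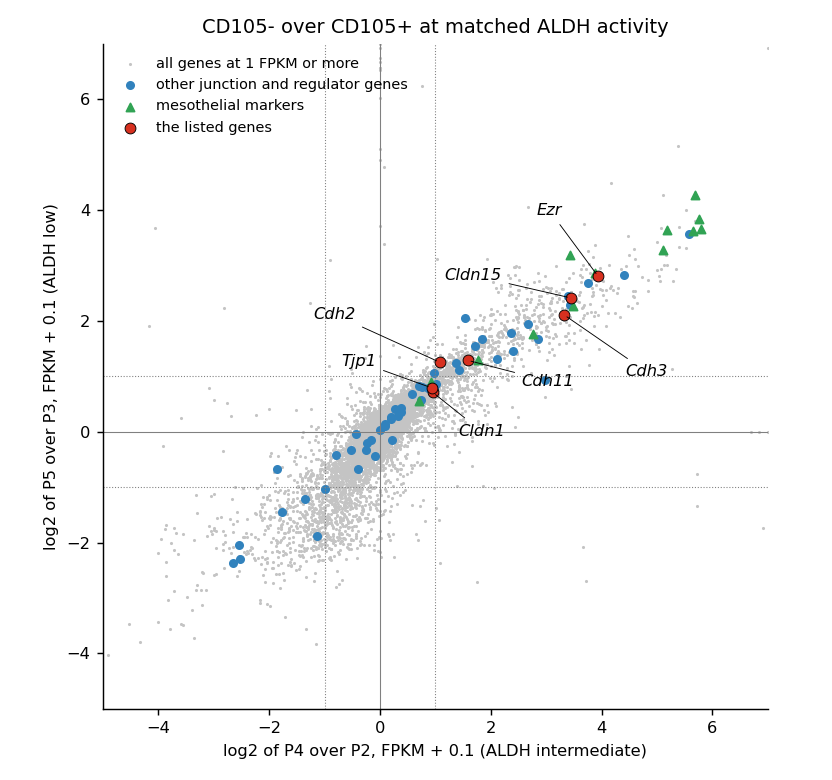
Log2 ratio of P5 over P3 (vertical) against P4 over P2 (horizontal), on FPKM + 0.1, for genes at 1 FPKM or more in 1 of the 4 libraries (grey, with 82 of 12405 genes outside the axes), other junction and regulator genes (blue), mesothelial markers (green) and the listed genes (red), with dotted lines at 2-fold. The 7 listed genes drawn lie in the upper right quadrant, which holds 52.5% of the genes tested, Ezr, Cldn15 and Cdh3 farthest out and Tjp1 and Cldn1 closest to the origin.

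Of the other junction and regulator genes 14 of 106 (50 tested) were called higher in CD105- cells and 6 higher in CD105+ cells. The former included the tight junction genes Cgn, Cgnl1, F11r and Pard6b, the claudins Cldn10 and Cldn3, and Slc9a3r1 and Podxl, partners of ezrin at the apical membrane. Podxl went from 1.94 FPKM in P2 to 97.0 in P4 and from 7.05 in P3 to 85.2 in P5, and Slc9a3r1 from 22.2 to 142 FPKM and from 42.2 to 162. The latter were Cdh13, Jam2, Snai2, Twist2, Cldn22 and Cldn24, and for Cldn22 and Cldn3 reads of an overlapping gene on the opposite strand cannot be told apart. Beside these, 9 of 13 mesothelial and 17 of 18 acinar genes were called higher in CD105- cells, and their part was not tested.

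ALDH activity was compared within each CD105 class, P2 with P3 and P4 with P5. None of the 10 genes was called in either direction, where 0.484% of genes were higher at intermediate and 0.524% at low activity. In CD105+ cells 3 genes, Ezr, Cdh2 and Cdh3, were nevertheless over 2-fold higher at low activity, Ezr by 2.26-fold (2.14 to 2.39), Cdh2 by 2.17-fold (1.73 to 2.71) and Cdh3, on 4 and 23 reads, by 5.38-fold (2.0 to 23.3). In CD105- cells Ezr differed by 1.02-fold (1.01 to 1.04) and Cdh2 by 2.31-fold (2.0 to 2.67), both higher at low activity. Cldn15 ran in opposite directions, 1.47-fold higher in P3 than P2 (1.32 to 1.64) and 1.40-fold higher in P4 than P5 (1.35 to 1.46). Cdh3 did so too, with P4 1.47-fold over P5 (1.21 to 1.78). This order, P3 above P2 and P4 above P5, was that of 2 of the 10 genes and of 13.5% of all genes tested. It was also the order of 8 of the 13 mesothelial markers, among them Upk3b, at 6.78 and 22.7 FPKM in P2 and P3 and at 383 and 289 FPKM in P4 and P5, and the part of such cells was not tested. Of the acinar enzymes 17 of 18 were over 2-fold higher at intermediate activity in both classes.

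P1, the ALDH high population, was compared with P2, its neighbour in the CD105+ class. A minimum of 1 FPKM in the higher library left 5 of the 10 to be tested. Cdh11 and Cldn1 were at least 2-fold higher in P2, 2.71-fold (2.64 to 2.78) and 5.72-fold (3.94 to 8.49), as were 4.5% of the 11803 genes tested. None of the 10 was at least 2-fold higher in P1, where 1.05% were. P1 thus had the lowest level of all 6 libraries for Cdh2, Cdh11, Cldn1, Cldn15, Tjp1 and Ezr, although for Ezr it could not be separated from P2 and for Cdh2 the order of P1 and P2 turned under quantile normalization. At least 2-fold higher in P2 were also 8 of the 106 other junction and regulator genes (43 tested). They were Cdh13, Cgnl1, Cldn22, Cldn24, Cldn26, F11r, Llgl2 and Slc9a3r1. Beside these, 17 of 18 acinar genes and none of the 8 mesothelial markers tested were at least 2-fold higher in P2. The part of such cells was not tested. The symbol Cldn26, like Cldn25, is not in GENCODE M21, so its locus could not be checked.

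Likeness to Cdh11 and to Cdh1 was described by Pearson's r of log2(FPKM + 0.1) over the 6 libraries, among genes with a mean of at least 1 FPKM. The 5 genes most like Cdh11 were Stk39, Tns3, Tst, Pvrl2 and Mettl24, from 0.9997 down to 0.996, and 533 of 12052 genes had r of at least 0.95, so a high value is common with 6 points. Pvrl2 (nectin-2), an adherens junction receptor, was at 19.9, 30.8, 44.2, 60.4, 76.2 and 66.2 FPKM from P1 to P6. For Cdh1 the leading genes were Jmjd8, Acot8, Sf3b5, Tmem248 and Med18, at r of 0.967 down to 0.934, but Cdh1 had at most 18 reads in a library and the order of its 6 values is mostly within counting error. Among the 10 genes, Cdh3 was the most like Cldn15 (r = 0.991) and Cdh2 the most like Cdh11 (r = 0.938).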

How the data were processed

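Stromal cells of the mouse omentum were sorted into 6 populations and each was sequenced as 1 library (NEBNext Ultra kit, Illumina NextSeq, single-end reads of 76 bp). The submitters' processing notes name TopHat2 2.0.7, Cufflinks 2.1.1 and mm10, and the annotation is not given in the sources used here. The authors deposited FPKM per gene symbol, which were used as given. The 495 rows that repeated a symbol were summed with it. With 1 library per population no test was made, and genes were called past a 2-fold ratio at a minimum of 1 FPKM, with 0.1 FPKM added for log2 values.

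Depth was estimated from low FPKM values of single-transcript genes (GENCODE M21, fragment length 200 nt), which are multiples of 1 read. Between 54.0% and 59.9% of values below about 10 reads lay no more than 0.05 from a whole read (10% would by chance), so estimated reads and their Clopper-Pearson or Poisson intervals are approximate. PCR duplicates were not marked by molecular identifiers, and intervals cover counting error only. The code was tested on simulated data.

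The 10 genes were given by name, and they and the lists were chosen with earlier results of these data known. Named genes were the 10, listed genes past a rule or at 5 FPKM or more, and the 5 most like Cdh1 and Cdh11. Dsp, Dsc2, Dsg2, markers and regulators below 5 FPKM, and the likeness between listed genes, were chosen after their values were seen. Other scalings, folds, minimums and left-out libraries were tried. Python 3.11.15, NumPy 2.4.6, pandas 2.3.3 and SciPy 1.17.1 were used. Some listed genes are not reported here.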

Additional observations from a re-analysis of the deposited data

Results flagged for a closer look

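Among the 10 genes and the other junction genes at 5 FPKM or more in a library, those with at least 1 FPKM in each of P2 to P5 were compared between the CD105 classes. With ALDH activity, 3 of them differed in opposite directions, each with counting intervals away from 1, and the difference between classes was not tested because each population was 1 library. Cldn15 had a log2 ratio of intermediate over low activity of -0.56 in CD105+ cells (P2 over P3) and 0.48 in CD105- cells (P4 over P5), a difference of 1.04. Podxl, an apical membrane glycoprotein anchored by ezrin, had -1.86 and 0.19, a difference of 2.05. Cgnl1 (paracingulin), a junction plaque protein, had -0.47 and 0.11, a difference of 0.58. In each of the 3 the CD105- level was above both CD105+ levels. Cdh3 also ran in opposite directions, but was below 1 FPKM in 3 of these 4 libraries.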

How the results depend on the processing

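No paired analysis was possible because no population was sequenced more than once. Of the counts recomputed under other settings, 109 stayed within 1.5 times of the reported count and 15 did not. Many of the 109 were counts of 0 that stayed 0, or left-out libraries, which cannot lose a call. The limit of 1.5 times also let in a change from 14 to 21, for other junction genes higher in P6 at a fold of 1.5. The log2 ratio of P6 over the mean of the others kept its sign for Cdh3, Cldn1 and Cldn15 under every scaling tried. Pseudocounts and left-out libraries could not turn this sign, because P6 was the highest library for each of these genes. With no minimum FPKM, which admits genes of a few reads, 6 of the 10 were higher in CD105- cells and 1 in CD105+ cells, 1 was higher at intermediate and 1 at low ALDH activity, 1 was higher in P1 and 4 in P2, and the other junction genes called in P6 went to 27 higher and 7 lower. At a fold of 1.5, 5 of the 10 were higher in CD105- cells. At a fold of 3, 1 of the 10 was higher in P2 than in P1, and 8 other junction genes were higher and 2 lower in P6. The count for P2 over P1 was also 1 with a minimum of 5 FPKM and with FPKM + 1, and division by Gapdh called 1 gene, Cdh2, at low ALDH activity. Gapdh moved the median log2 ratio of P4 over P2 across all genes from 0.08 to -0.38 and that of P5 over P3 from 0.09 to -0.44, quantile normalization moved the former to -0.03, and both moved that of P6 over the mean of the others from 0.08 to -0.03. Leaving any of P1 to P5 out of the P6 comparison can only add calls, and none of the 10 was added in either direction. The number of genes whose P6 ratio to the next library lay above 1 remained 5 at 50% of the estimated depth and with a fragment length of 220 nt, both chosen after seeing the data. Likeness to Cdh1 and Cdh11 stayed within 1.5 times with a pseudocount of 1. Depth limits Cdh1, Ocln and Epcam, which rest on at most 32 reads, and no setting supplies the missing spread between animals.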
